A study of Mus musculus with 39 samples.

Results

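Immunoglobulin variable (V) gene segments are the germline pieces that encode most of the antigen-binding part of an antibody chain. Those described here are the heavy chain (Ighv), kappa light chain (Igkv) and lambda light chain (Iglv) rows of the spleen expression table whose mean normalised read count over 19 libraries was 10 or more, so that they were chosen by their measured level. There were 188 of them, 93 heavy, 92 kappa and 3 lambda, of 346 V rows and of 54735 genes in all. The other 158 V rows fell below the minimum, and 49 of these were at 0 in every library. That these segments are expressed is therefore no result. Messenger RNA was sequenced from spleen and liver of C57BL/6 mice at 4 weeks of age, labelled either wild type (WT) or knockout (KO) for SXR/PXR, a nuclear receptor for foreign chemicals that is encoded by Nr1i2. Exposed mice were given the polychlorinated biphenyl PCB-153 perinatally and up to that age, with a daily dose near 54 µg/kg, and the others had DMSO as vehicle. Spleen had 4 WT vehicle libraries and 5 each of WT PCB-153, KO vehicle and KO PCB-153, here named by group and replicate number (KO vehicle 2). The labels say neither which part of Nr1i2 was deleted nor whether animals were pooled or littermates, so p-values measure the spread between these samples only. In spleen Nr1i2 went against its label, at 0 to 2.27 in libraries labelled wild type and 42.9 to 62.8 in those labelled knockout. WT and KO below therefore mean the labels, and every direction between them rests on these.

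In a developing B cell, recombination joins 1 V segment to a J segment in a light chain gene, and 1 V, 1 D and 1 J segment in the heavy chain gene, so each B cell clone transcribes 1 productive heavy and usually 1 productive light chain combination. A V segment's level in a tissue therefore sums over all B cells and plasma cells that carry it, and plasma cells, which secrete antibody, hold far more of this RNA per cell than resting B cells. In bulk tissue, fewer cells of a type and less RNA per cell cannot be told apart. B-1 cells are a self-renewing B cell class with a restricted set of V segments, whereas most spleen B cells use a broad set.

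The sequences that the results turn on are shown here as the last 300 bases of each coding sequence, from the GENCODE M21 transcripts of GRCm38, 5′ to 3′ with introns left out. The first pair are the leading kappa segments, Igkv1-110 (chr6:68270527-68271267, plus strand) and Igkv1-117 (chr6:68121091-68121827, plus strand). They are shown because their order in the libraries changed between groups, and capitals mark the 10 of 359 coding positions at which they differ (97.2% identity), all of which lie in the stretch shown.
Igkv1-110: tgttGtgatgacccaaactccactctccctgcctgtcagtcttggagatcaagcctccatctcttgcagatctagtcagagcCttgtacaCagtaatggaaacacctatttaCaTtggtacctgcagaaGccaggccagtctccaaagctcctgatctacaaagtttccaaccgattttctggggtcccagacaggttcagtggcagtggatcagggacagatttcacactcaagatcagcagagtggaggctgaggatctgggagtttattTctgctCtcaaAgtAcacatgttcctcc
Igkv1-117: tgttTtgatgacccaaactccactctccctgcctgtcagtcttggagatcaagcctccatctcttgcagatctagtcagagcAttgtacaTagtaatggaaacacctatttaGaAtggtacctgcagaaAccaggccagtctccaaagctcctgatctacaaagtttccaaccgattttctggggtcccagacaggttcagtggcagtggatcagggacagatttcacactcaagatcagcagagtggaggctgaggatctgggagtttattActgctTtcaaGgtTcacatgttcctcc

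The second pair are Iglv1 (chr16:19085017-19085460, minus strand) and Iglv2 (chr16:19260401-19260844, minus strand), the leading lambda segments. They differ at 11 of 351 coding positions (96.9% identity), and capitals mark the 8 of these that lie in the stretch shown.
Iglv1: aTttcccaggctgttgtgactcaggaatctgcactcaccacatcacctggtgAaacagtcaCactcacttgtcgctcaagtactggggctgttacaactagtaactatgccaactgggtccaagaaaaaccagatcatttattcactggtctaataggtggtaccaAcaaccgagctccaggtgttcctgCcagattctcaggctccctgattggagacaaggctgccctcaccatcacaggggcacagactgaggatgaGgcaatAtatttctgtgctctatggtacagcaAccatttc
Iglv2: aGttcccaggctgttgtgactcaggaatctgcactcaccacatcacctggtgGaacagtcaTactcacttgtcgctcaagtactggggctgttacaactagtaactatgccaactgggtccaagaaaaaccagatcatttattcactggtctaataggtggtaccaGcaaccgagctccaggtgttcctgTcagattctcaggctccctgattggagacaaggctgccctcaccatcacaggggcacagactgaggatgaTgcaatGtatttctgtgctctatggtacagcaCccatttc

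Ighv1-11 (chr12:114612243-114612675, minus strand) was called higher in 2 comparisons, and Igkv4-70 (chr6:69267888-69268412, minus strand) and Ighv1-50 (chr12:115119748-115120180, minus strand) were both far higher in 1 library than in the rest. In these sequences the capitals run from the last in-frame cysteine codon to the end of the germline segment. This is the stretch where the antigen-binding loop made by recombination, CDR3, begins, and which each clone trims or extends.
Ighv1-11: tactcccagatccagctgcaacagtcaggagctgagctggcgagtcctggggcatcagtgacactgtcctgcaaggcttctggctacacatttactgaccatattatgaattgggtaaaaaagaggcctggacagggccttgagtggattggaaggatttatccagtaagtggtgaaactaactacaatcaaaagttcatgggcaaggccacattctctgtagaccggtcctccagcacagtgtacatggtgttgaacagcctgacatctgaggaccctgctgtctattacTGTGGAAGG
Igkv4-70: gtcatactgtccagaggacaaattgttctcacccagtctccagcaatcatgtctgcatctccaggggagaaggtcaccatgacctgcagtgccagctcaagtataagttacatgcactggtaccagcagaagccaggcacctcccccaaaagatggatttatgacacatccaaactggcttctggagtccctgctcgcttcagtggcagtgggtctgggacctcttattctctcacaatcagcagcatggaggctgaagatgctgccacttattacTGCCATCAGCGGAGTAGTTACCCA
Ighv1-50: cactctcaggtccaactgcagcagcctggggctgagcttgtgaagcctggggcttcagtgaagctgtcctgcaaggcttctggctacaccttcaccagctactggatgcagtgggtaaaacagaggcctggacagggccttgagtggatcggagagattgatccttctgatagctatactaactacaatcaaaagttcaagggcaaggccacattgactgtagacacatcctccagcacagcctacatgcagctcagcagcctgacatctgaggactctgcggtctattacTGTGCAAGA

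V segments are short and resemble each other, which bears on how reads are assigned. Of the members, 138 shared at least 10% of the 50-base words of their annotated transcripts with another gene, 30 shared at least 50%, and 31 shared none. Igkv1-110 shared 50.9%, Igkv1-117 49.9%, Iglv1 22.2%, Iglv2 21.1%, Ighv1-50 52.2% and Igkv4-70 63.9%, whereas Ighv1-11 and Iglv3 shared none. Reads of a segment with many shared words can be lost or given to a relative, and neither the treatment of such reads nor the use of strand in counting is stated in the sources at hand.

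All 188 members had an entry in the annotation. Among heavy chain rows, 90 of 113 annotated functional V genes reached the minimum, against 3 of 69 pseudogenes. Among kappa rows these were 88 of 100 functional genes and 4 of 60 pseudogenes, and all 3 lambda rows are functional genes. Just inside the minimum lay Ighv15-2 (mean 10.01) and Ighv7-4 (10.4), and just outside Igkv8-18 (9.84) and Igkv4-81 (9.78).

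Levels were uneven within each locus. The heavy chain members had means from 10.01 to 442.3, with a median of 70.7, and the kappa members from 10.58 to 1343, with a median of 96.3. The 10 leading heavy segments held 32.2% of the summed heavy mean, and the 10 leading kappa segments 41.0%. The 6 heavy segments with the highest means were Ighv1-26 (442.3), Ighv6-3 (324.8), Ighv7-3 (310.0), Ighv9-3 (288.1), Ighv3-6 (275.8) and Ighv1-53 (244.0). Among kappa segments they were Igkv1-117 (1343), Igkv1-110 (1303), Igkv1-135 (641.7), Igkv10-96 (533.4), Igkv5-39 (396.2) and Igkv9-120 (359.1). The lambda segments were Iglv1 (1370), Iglv2 (714.5) and Iglv3 (380.7). Divided by the length of the annotated transcript these segments kept the same order within each locus, from 1260 per kb for Ighv1-26 to 695.1 for Ighv1-53, from 3324 for Igkv1-117 to 1017 for Igkv9-120, and 3504, 2053 and 999.1 for Iglv1, Iglv2 and Iglv3. By family, the 46 Ighv1 members held 47.1% of the heavy sum. The 7 Igkv1 members held 24.6% of the kappa sum, and the 26 Igkv4 members 14.9%. By position on chromosome 6, the 54 kappa rows farthest from the J segments held 49.5% of the kappa sum, the 53 in the middle 16.8% and the 53 nearest 33.8%. On chromosome 12 the 61 heavy rows nearest the J segments held 36.7% of the heavy sum, the 61 in the middle 31.3% and the 61 farthest 32.0%.

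The sum over a locus describes how much V segment RNA a library held, all clones together. Heavy sums were 7926 ± 1741 normalised reads (SD, n = 4) in WT vehicle, 7953 ± 861 (n = 5) in WT PCB-153, 9651 ± 959 (n = 5) in KO vehicle and 8731 ± 1901 (n = 5) in KO PCB-153. Kappa sums were 13286 ± 1420, 13447 ± 1634, 15659 ± 1190 and 14455 ± 2198 in the same order. Lambda sums were 2364 ± 422, 2294 ± 146, 2656 ± 120 and 2526 ± 594. At all 3 loci the groups overlapped in each of the 4 comparisons between groups made below. KO PCB-153 2 had the highest sum of any library at each locus (12015, 18229 and 3402), and WT vehicle 3 the lowest (5557, 11310 and 1799). KO PCB-153 2 held the highest value of 40 members, and WT vehicle 3 the lowest of 50. Lambda made up 14.7% of the light chain sum on average, from 12.3% in WT PCB-153 5 to 16.9% in KO PCB-153 5.

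**Figure D1:**
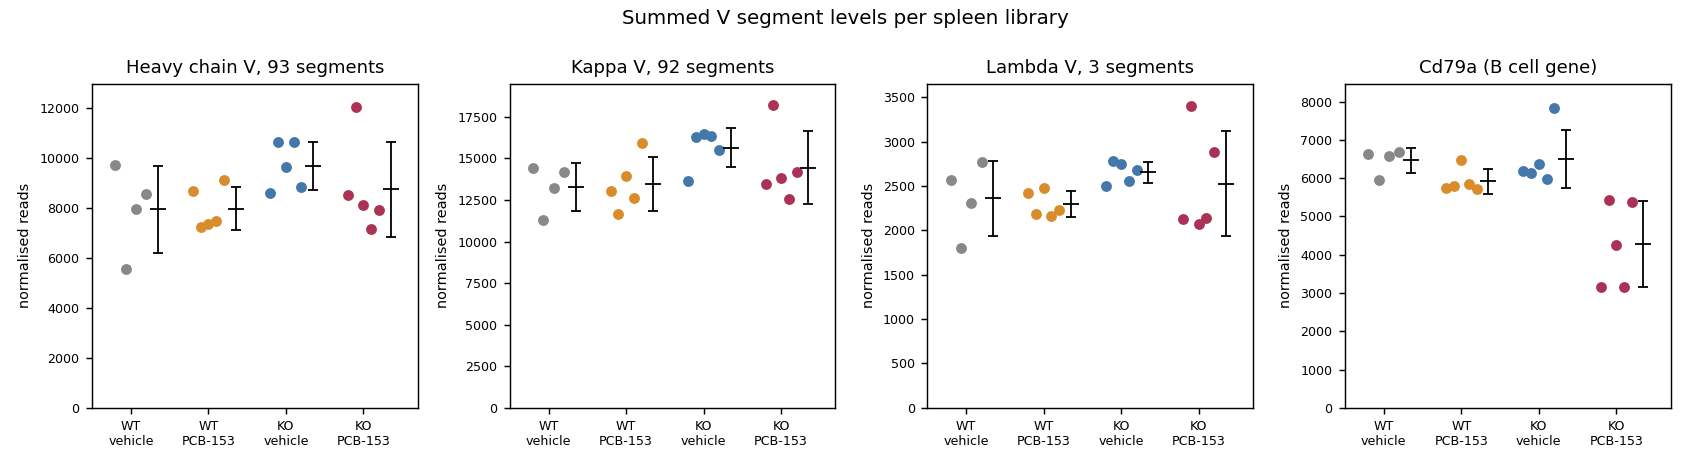
Summed normalised reads of the heavy, kappa and lambda members and the level of the B cell gene Cd79a in each spleen library, by group (points), with the group mean and SD (dash and bars). V segment sums overlapped in the 4 comparisons made, although lambda sums of KO vehicle (from 2503) all lay above those of WT PCB-153 (up to 2481), KO PCB-153 2 was highest at each locus, and Cd79a was lowest in KO PCB-153 1 and KO PCB-153 4.

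Cd79a, a subunit of the B cell receptor, was at 6463 ± 336 in WT vehicle, 5913 ± 316 in WT PCB-153, 6501 ± 758 in KO vehicle and 4275 ± 1122 in KO PCB-153. It fell in KO PCB-153 against KO vehicle by 0.64 ± 0.13 (SE) on the log2 scale (limma, adjusted p = 0.0212). The V sum over all 3 loci per unit of Cd79a was 3.63 ± 0.39, 4.02 ± 0.48, 4.35 ± 0.62 and 6.21 ± 1.14 in the same order of groups. In KO PCB-153 it reached from 4.65 to 7.64, and in KO vehicle from 3.45 to 4.94. Jchain, which joins antibody units and marks plasma cells, was at 3122 ± 558, 3283 ± 692, 3985 ± 599 and 4182 ± 740. The V sum per unit of Jchain was 7.73 ± 1.84, 7.36 ± 0.91, 7.10 ± 0.79 and 6.18 ± 0.61. Mzb1, a chaperone of antibody-secreting cells, was at 915 ± 57, 856 ± 116, 911 ± 59 and 853 ± 224. The constant region genes Ighm and Igkc were at 49246 ± 5770 and 19345 ± 2112 in WT vehicle, 46358 ± 5825 and 17883 ± 2953 in WT PCB-153, 51068 ± 3456 and 21155 ± 1482 in KO vehicle and 47211 ± 10902 and 19622 ± 4290 in KO PCB-153, and neither passed the test in any comparison.

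Genotypes as labelled were first compared under PCB-153, where 2 of the 188 V segments passed the test (1.06%), against 30 of 19058 genes (0.157%), and both were higher in the libraries labelled knockout, as were 0.0787% of all genes. Of the members, 111 had a higher mean, against 48.8% of all genes. The median log2 difference was 0.11, against 0.00 over all genes tested. Without KO PCB-153 2 these were 96 members and a median of 0.0015, and without KO PCB-153 1, 4 and 5, which held pancreatic RNA as described below, 137 members and a median of 0.24. DESeq2 called 6 members, against 1.13% of genes, and edgeR called 2, against 0.341% of genes. At an unadjusted p under 0.05 stood 34 members, 18.1% against 10.9% of all genes.

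The first was Igkv1-110. It was at 938.4, 927.3, 1132, 1169 and 1111 in WT PCB-153 and at 1613, 2224, 1552, 1667 and 1580 in KO PCB-153. The groups did not overlap, and the difference was 0.70 ± 0.13 on the log2 scale (limma, adjusted p = 0.0212). It was at 1041, 980.3, 982.6 and 1308 in WT vehicle and at 1010, 1329, 1724, 1297 and 1169 in KO vehicle, so that 1 KO vehicle library, replicate 3, lay within the KO PCB-153 range. Against KO vehicle the KO PCB-153 level was 0.41 ± 0.13 higher on the log2 scale (adjusted p = 0.0553), and as a share of the kappa sum 0.54 ± 0.10 (adjusted p = 0.0145). As a share of the kappa sum it was 8.13% ± 0.96 in WT vehicle, 7.90% ± 0.90 in WT PCB-153, 8.30% ± 1.248 in KO vehicle and 11.96% ± 0.87 in KO PCB-153, with the lowest KO PCB-153 library at 11.1% and the highest of the other 14 at 10.5%. The interaction of genotype and exposure was 0.44 ± 0.18 and did not pass (adjusted p = 0.463).

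Its close relative Igkv1-117, the other sequence of the first pair above, differed less. It was at 1243 ± 137 in WT PCB-153 and 1513 ± 238 in KO PCB-153, a log2 difference of 0.28 ± 0.10 that did not pass (adjusted p = 0.295). Igkv1-110 was the highest kappa segment in all 5 KO PCB-153 libraries, in 1 of 5 KO vehicle libraries, in 1 of 5 WT PCB-153 libraries and in 0 of 4 WT vehicle libraries, and Igkv1-117 was the highest in all the others. The ratio of Igkv1-110 to Igkv1-117 within a library was 0.888 ± 0.053 in WT vehicle, 0.853 ± 0.095 in WT PCB-153, 0.944 ± 0.125 in KO vehicle and 1.14 ± 0.070 in KO PCB-153. KO vehicle 3, at 1.16, lay within the KO PCB-153 range of 1.06 to 1.247.

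**Figure D2:**
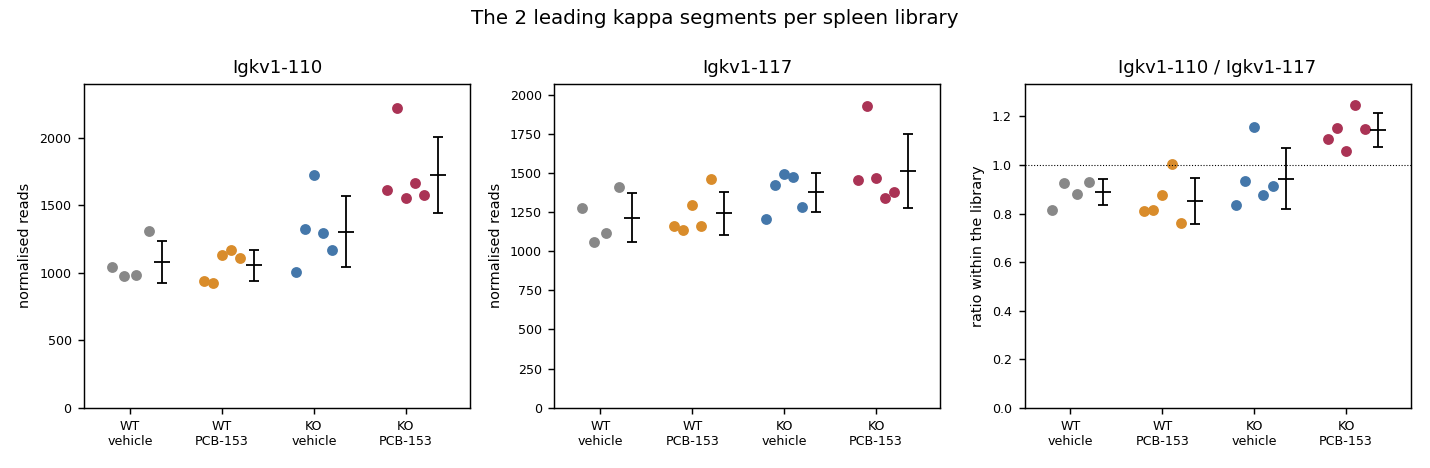
Normalised reads of Igkv1-110 and Igkv1-117 and their ratio within each spleen library (points) by group, with mean and SD (dash and bars); the dotted line marks a ratio of 1. All 5 KO PCB-153 libraries lie above 1, from 1.06 to 1.247, with KO vehicle 3 (1.16) and WT PCB-153 4 (1.01) the others above it.

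The second was Ighv1-11, a low heavy chain segment. It was at 14.5, 19.6, 9.07, 10.8 and 16.1 in WT PCB-153 and at 48.4, 86.4, 20.1, 49.9 and 48.3 in KO PCB-153. The groups lay just apart, with KO PCB-153 3 (20.1) next to WT PCB-153 2 (19.6), and the difference was 1.69 ± 0.34 (limma, adjusted p = 0.0392). It passed in 3 of the 10 fits that each left out 1 library of these groups, with an adjusted p of up to 0.128, whereas Igkv1-110 passed in 8 of 10. In WT vehicle it was at 13.2, 9.40, 15.1 and 7.86 and in KO vehicle at 16.5, 13.7, 24.3, 21.2 and 7.39. KO PCB-153 against KO vehicle, which uses the same KO PCB-153 libraries, gave 1.51 ± 0.34 (adjusted p = 0.026), and KO PCB-153 3 lay below KO vehicle 3 and KO vehicle 4. The interaction was 1.24 ± 0.49 (adjusted p = 0.452).

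The KO PCB-153 group held libraries with RNA of a neighbouring organ. The pancreatic gene Cpa1 was at 605.1, 5091 and 28.8 in KO PCB-153 1, 4 and 5 and at most 2.77 elsewhere. Without those 3 libraries the difference from WT PCB-153 was 0.82 for Igkv1-110 (adjusted p = 0.0587) and 1.56 for Ighv1-11 (adjusted p = 0.148), and 0 members were called. That fit kept only KO PCB-153 2 and KO PCB-153 3 of their group. The albumin gene Alb of hepatocytes was above 1000 in WT vehicle 1, WT PCB-153 1 and KO vehicle 4, and without these the differences were 0.66 (adjusted p = 0.179) and 1.71 (adjusted p = 0.201), with 0 members called. Leaving out WT PCB-153 1 or WT PCB-153 2 alone also left 0 called, with Igkv1-110 at 0.66 and an adjusted p of 0.0876 and 0.0955.

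Exposure in the libraries labelled knockout was the comparison with the most V segments past the test. Of 188, 7 changed (3.72%), 1 higher and 6 lower, a smaller share than the 1010 of 19058 genes (5.3%) called in this comparison, of which 2.78% were higher and 2.52% lower. Of the members, 147 had a lower mean in KO PCB-153 and 41 a higher one, where 48.7% of all genes were higher. The median over the members was -0.20, against -0.01 over all genes. Without the 3 libraries with pancreatic RNA 101 were lower, with a median of -0.03, and 0 were called. That fit kept only KO PCB-153 3 and KO PCB-153 2, the library with the highest V sums. Without KO PCB-153 2 alone 157 were lower, with a median of -0.29. The loss of pancreatic RNA and the smaller group cannot be told apart here. With all libraries DESeq2 called 11, against 12.4% of genes, and edgeR 8, against 5.15%. Each of the 7 passed in 3 to 6 of the 10 fits without 1 library of these groups. The member that rose in the limma fit was Ighv1-11, and the 6 that fell comprised 5 kappa segments and 1 heavy segment.

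Igkv3-7 was at 60.5, 70.4, 56.6, 64.6 and 93.3 in KO vehicle and at 31.2, 47.5, 34.6, 32.9 and 47.4 in KO PCB-153. The groups did not overlap, and it fell by 0.82 ± 0.17 on the log2 scale (limma, adjusted p = 0.0247). The WT libraries, at 50.1 to 65.2 under vehicle and 51.3 to 91.6 after PCB-153, all lay above the KO PCB-153 range as well.

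Igkv15-103 was at 304.7, 278.8, 289.2, 531.5 and 291.1 in KO vehicle and at 181.6, 164.3, 199.96, 232.3 and 188.8 in KO PCB-153. These groups did not overlap, but both WT groups, at 165.9 to 297.4 together, overlapped each of them. It fell by 0.77 ± 0.18 (adjusted p = 0.0269). Igkv17-121 was at 243.1, 257.8, 285.2, 289.8 and 243.0 in KO vehicle and at 222.5, 199.6, 188.8, 162.3 and 206.6 in KO PCB-153, and fell by 0.43 ± 0.11 (adjusted p = 0.0308). Its WT libraries lay from 170.7 to 268.5 and overlapped both.

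Igkv13-85 was at 89.1, 87.7, 132.5, 83.1 and 94.3 in KO vehicle and at 52.7, 81.5, 53.6, 62.6 and 63.5 in KO PCB-153. The groups were separated by the gap between KO vehicle 4 and KO PCB-153 2 only, and it fell by 0.62 ± 0.16 (adjusted p = 0.0344). Igkv6-29 was at 42.9, 60.3, 93.03, 54.5 and 59.1 in KO vehicle and at 47.3, 32.9, 33.5, 25.5 and 39.0 in KO PCB-153. KO PCB-153 1 lay above KO vehicle 1, and it fell by 0.76 ± 0.21 (adjusted p = 0.0398).

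Ighv1-50 was at 136.4, 462.5, 132.5, 138.4 and 130.3 in KO vehicle and at 72.0, 99.8, 109.5, 66.8 and 77.9 in KO PCB-153. One library, KO vehicle 2, was more than 3 times as high as any other of the 19, and it fell by 1.03 ± 0.29 (adjusted p = 0.0404). Without KO vehicle 2 it fell by 0.68 (adjusted p = 0.0698), although the groups still did not overlap. Under the leave-one-out fits the number of V segments called ran from 0, without KO vehicle 5, KO PCB-153 1 or KO PCB-153 4, to 26 without KO PCB-153 2.

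**Figure D3:**
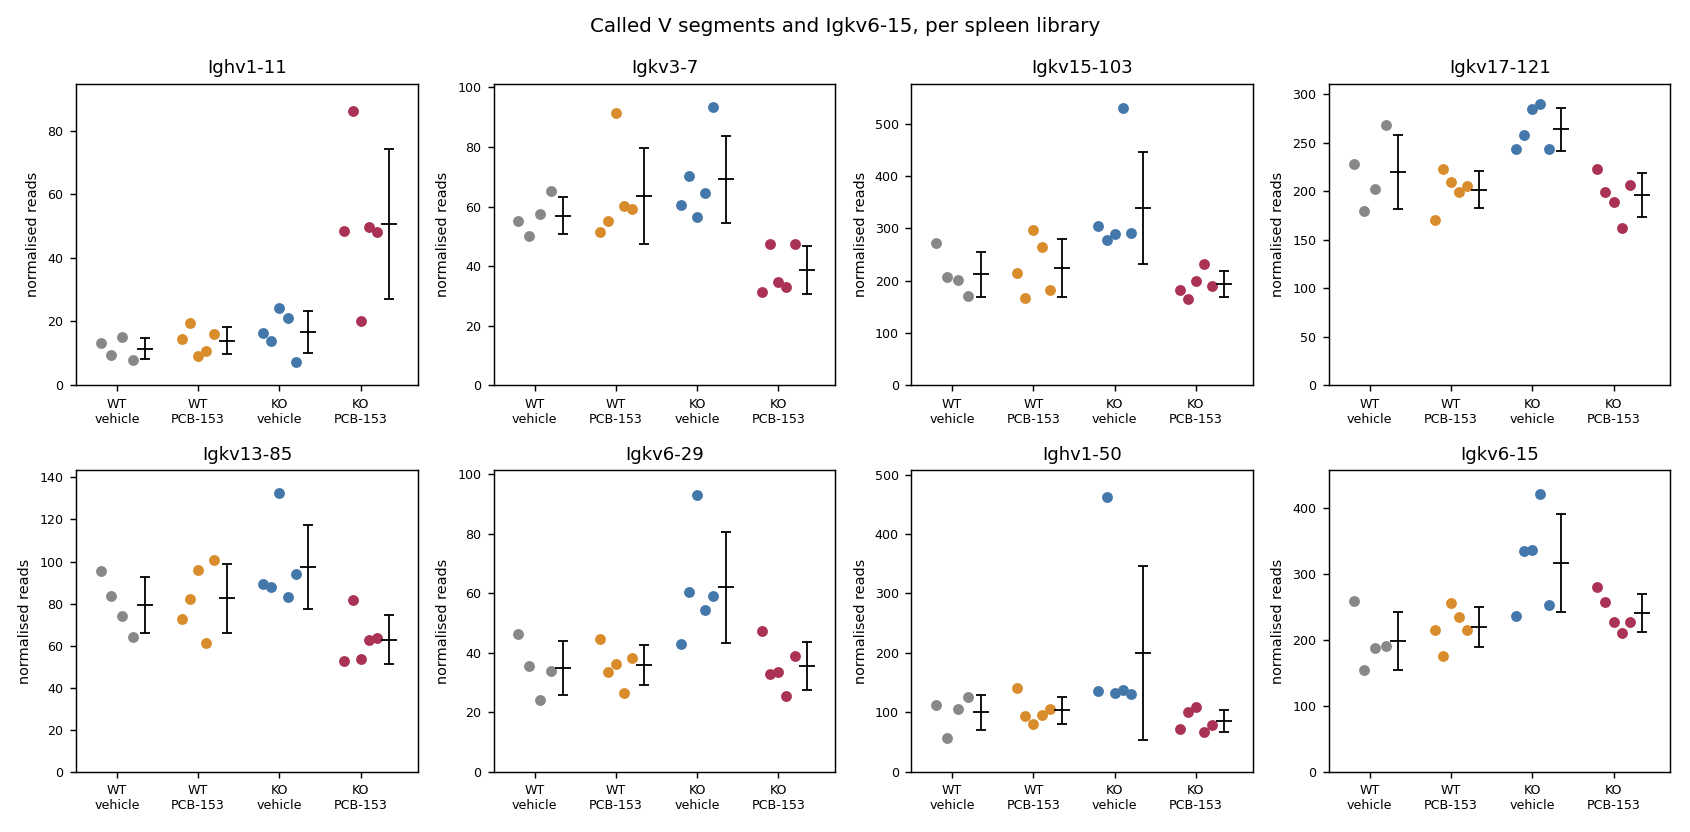
Normalised reads per spleen library (points) by group, with mean and SD (dash and bars), for the 7 V segments called in KO PCB-153 against KO vehicle and for Igkv6-15. Ighv1-11 is high in KO PCB-153, Igkv3-7 is low there alone, and Igkv15-103, Igkv6-29 and Igkv6-15 have their highest values in KO vehicle.

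Dividing each member by the sum of its locus removes differences in total V segment RNA and leaves the use of segments relative to each other. Only the members were rescaled, so the share over all genes at hand is that of the main fit. It was 0.157% for KO PCB-153 against WT PCB-153 and 5.3% for KO PCB-153 against KO vehicle. On the scale of locus shares 4 members passed in KO PCB-153 against WT PCB-153, 2 higher (Igkv1-110 and Ighv1-11) and 2 lower (Igkv3-7 and Iglv3). In KO PCB-153 against KO vehicle 7 passed, of which 3 were among the 7 named above, and the split turned from 1 higher and 6 lower to 4 higher (Igkv1-110, Igkv1-117, Ighv7-3 and Ighv1-11) and 3 lower (Igkv3-7, Ighv1-50 and Iglv3). The median over the members moved from -0.20 to -0.05. Iglv3, the least used lambda segment, made up 17.3% ± 0.63 of the lambda sum in WT vehicle, 16.2% ± 0.86 in WT PCB-153, 16.2% ± 0.80 in KO vehicle and 12.51% ± 0.93 in KO PCB-153. All 5 KO PCB-153 libraries, from 11.1% to 13.5%, lay below all 14 others, whose lowest was 15.1%. The share fell by 0.37 ± 0.07 on the log2 scale against each of WT PCB-153 (limma, adjusted p = 0.0242) and KO vehicle (adjusted p = 0.0143), 2 comparisons that use the same KO PCB-153 libraries. Before this division Iglv3 was 0.47 ± 0.14 lower than in KO vehicle (adjusted p = 0.0513) and 0.26 ± 0.14 lower than in WT PCB-153 (adjusted p = 0.527). Iglv2 made up 26.9% ± 2.0, 27.6% ± 1.9, 30.4% ± 2.9 and 30.5% ± 1.2 in the 4 groups, and Iglv1 the remainder. Iglv1 lies 19.2 Mb from Nr1i2 on chromosome 16, the chromosome of the targeted gene. A part of this position in the lambda levels was not tested.

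Genotypes as labelled under vehicle gave 0 of 188 V segments past the test, against 6 of 19058 genes (0.0315%), with limma. On recovered reads edgeR called 0, against 0.0315% of genes, and DESeq2 called 0, against 0.0866%. At an unadjusted p under 0.05 limma had 36 members, 19.1% against 10.5% of all genes. A higher mean in KO vehicle was found for 162 of 188 members, against 51.8% of all genes. The median log2 difference was 0.27, against 0.01 over all genes. Without WT vehicle 3, the library with the lowest sums, these were 142 members and 0.15. After division by the locus sum 94 members were higher, with a median of 0.00. The 2 members with the smallest p were both of the Igkv6 family. Igkv6-15 was at 259.4, 154.5, 188.2 and 191.0 in WT vehicle and 236.5, 334.5, 336.7, 421.7 and 252.3 in KO vehicle. WT vehicle 1 lay within the KO vehicle range, and the difference was 0.66 ± 0.16 (adjusted p = 0.239). Igkv6-29 differed by 0.80 ± 0.22 (adjusted p = 0.331), with 24.2 to 46.2 in WT vehicle.

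**Figure D4:**
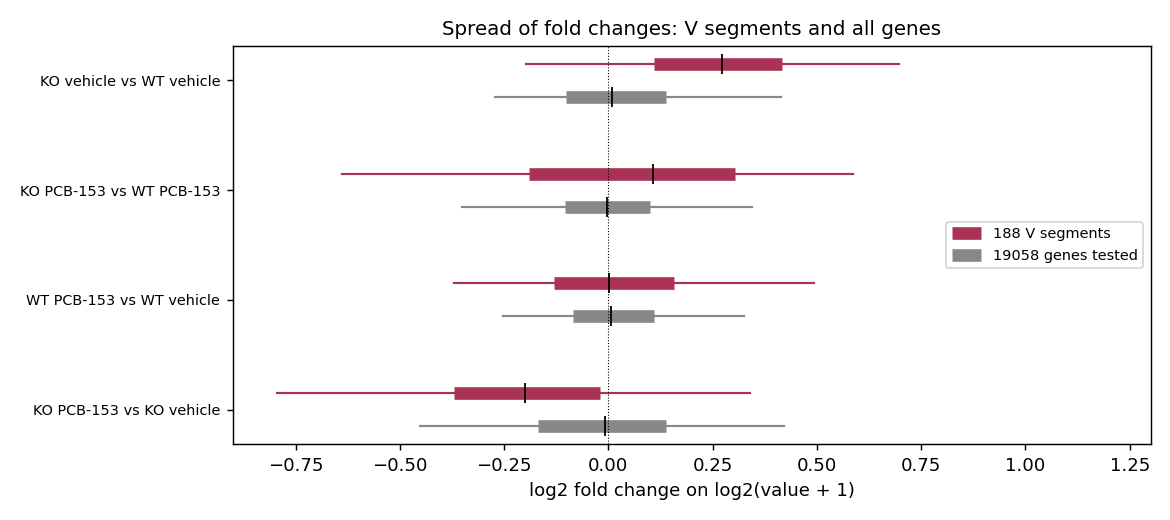
Log2 fold changes of the 188 V segments (red) and of the 19058 genes tested (grey) in 4 comparisons: black marks are medians, thick bars run from the 25th to the 75th and thin lines from the 5th to the 95th percentile. V segments spread more widely than all genes, with medians of 0.27 for KO vehicle against WT vehicle and -0.20 for KO PCB-153 against KO vehicle.

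Exposure in the libraries labelled wild type gave 0 of 188 V segments past the test, against 0 of 19058 genes (0%), with limma, 0 with edgeR (0% of genes), and 0 with DESeq2 against 0.00831% of genes. Here 5 members had an unadjusted p under 0.05 (2.66% against 3.81% of all genes). Higher and lower means were balanced at 94 each, with a median of 0.00, and 52.3% of all genes were higher. Ighv3-4 was at 48.4, 29.2, 18.1 and 29.2 in WT vehicle and 13.4, 2.80, 18.1, 20.4 and 18.1 in WT PCB-153, a difference of -1.19 ± 0.41 (adjusted p = 0.943). Ighv11-1 was at 27.5, 24.0, 14.4 and 4.49 in WT vehicle and 36.8, 51.3, 29.9, 33.7 and 37.6 in WT PCB-153. These groups did not overlap, and the difference was 1.29 ± 0.50 (adjusted p = 0.943). The balance moved both ways as libraries were left out, from 73 higher and a median of -0.08 without WT vehicle 3 to 119 higher and 0.07 without WT vehicle 1, and 122 were higher (median 0.04) without WT vehicle 1 and WT PCB-153 1, the libraries of these groups with Alb above 1000. The median standard error in this comparison was 0.26 for V segments and 0.13 for all genes.

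The interaction asks whether the exposure difference itself differed between genotypes. With limma it had 0 of 188 members and 0 of 19058 genes (0%) past the test. At an unadjusted p under 0.05 limma had 26 members, 13.8% against 9.85% of all genes. Called were 0 members with edgeR (0% of genes) and 0 with DESeq2, against 0.152% of genes. Igkv3-7 had the smallest p, with -0.95 ± 0.25 (adjusted p = 0.417). Igkv1-99 was next with -1.80 ± 0.56 (adjusted p = 0.422). It was at 11.2 to 16.5 in WT vehicle, 14.9 to 49.3 in WT PCB-153, 9.23 to 27.7 in KO vehicle and 2.12 to 11.01 in KO PCB-153, and the WT PCB-153 maximum was 1 library, replicate 4.

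A single library can carry a large amount of 1 V segment where 1 clone or a few are abundant there. A segment was called expanded in 1 library when its highest value was at least 50, at least 2 times the next highest library and at least 5 times the median of the other 18, on value + 1. By this rule 4 of 188 V segments were expanded (2.13%), against 97 of 19058 genes (0.509%). Of those 97 genes, 50 had their highest value in KO vehicle 4 and 42 in KO PCB-153 4, the libraries with the most Alb and Cpa1. Each of the 4 V segments was in a different library. Ighv1-20 was at 128.5 in WT vehicle 4 and at most 27.9 elsewhere, 4.48 times the next library. Igkv4-70 was at 683.7 in KO vehicle 2 and at most 222.1 elsewhere, 3.07 times the next. Igkv4-63 was at 209.8 in WT PCB-153 1 and at most 68.5 elsewhere, 3.03 times the next. Ighv14-1 was at 160.2 in KO PCB-153 4 and at most 62.8 elsewhere, 2.53 times the next. The same 4 were called on shares of the locus sum. In all, 14 of the 188 members had a highest value of at least 50 that was at least 2 times the next library. Of the 19058 genes tested, these members included, 109 did so. With 1.5 and 3 times in place of 2 and 5, 19 members and 0.693% of all genes were expanded.

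**Figure D5:**
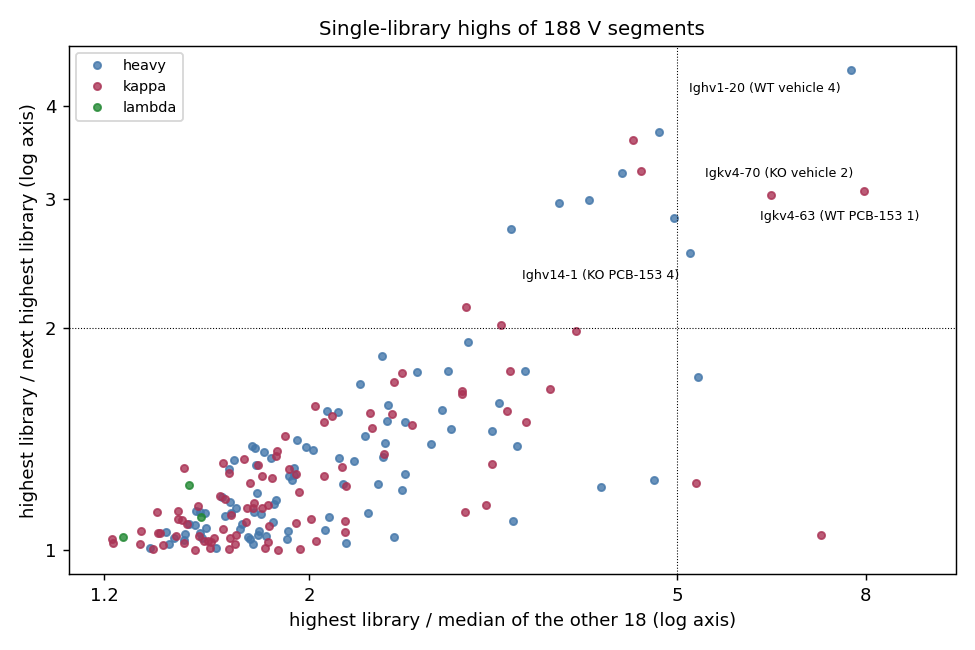
For each of the 188 V segments, the highest spleen library over the median of the other 18 (x, log axis) and over the next highest library (y, log axis), on value + 1; dotted lines mark the thresholds of 5 and 2. The 4 named segments lie past both, led by Ighv1-20 at 4.48 times the next library.

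Some libraries had a heavy and a kappa segment high at once. The segments in the rest of this account that were not expanded by the rule were chosen after their values were seen. In KO vehicle 2, Igkv4-70 made up 4.19% of the kappa sum, with 0.36% to 1.70% elsewhere, and Ighv1-50 made up 4.36% of the heavy sum, with 0.831% to 1.64% elsewhere. The same library had Ighv3-8 at 304.4, against at most 107.1 in any other. Igkv4-55, which shared 53.3% of its words with other genes, was at 639.8 there and at 517.7 in WT PCB-153 1, the library with the second highest Igkv4-70 (222.1), and at 93.7 to 242.4 in the rest. In bulk RNA nothing shows whether a heavy and a kappa segment come from the same cells.

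A second such combination was shared by 2 libraries of different groups. Igkv3-2 was at 864.0 in WT vehicle 4 and 907.8 in WT PCB-153 5, and at 50.9 to 217.8 in the other libraries. Ighv1-9 was at 560.9 and 460.0 in the same 2 libraries and at 110.1 to 239.7 in the rest. Igkv3-2 had the widest range of all members, 17.5 times from the lowest to the highest library on value + 1, against a median of 3.27 times over the members.

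Ighv11-2 and Igkv14-126, known together from B-1 cells that bind phosphatidylcholine, were both highest in KO vehicle 5, at 260.6 and 543.4. The next highest were 164.0 for Ighv11-2, in WT PCB-153 2, and 327.7 for Igkv14-126, in WT PCB-153 5. In that library they made up 2.95% of the heavy and 3.501% of the kappa sum. The WT groups also differed without overlap. In WT PCB-153 the shares were 1.38% to 2.27% of the heavy and 1.42% to 2.05% of the kappa sum. In WT vehicle they were 0.38% to 1.18% and 0.64% to 1.28%. On locus shares 0 members passed the test in that comparison. Their lowest values were 32.6 for Ighv11-2, in WT vehicle 5, and 77.9 for Igkv14-126, in KO PCB-153 2. Ighv11-1, of the same family as Ighv11-2 and with 52.3% of its words shared, was also highest in KO vehicle 5, at 74.9. Ighv12-3 and Igkv4-91, another pair known from such B-1 cells, were instead both highest in KO PCB-153 2, at 59.6 and 247.1. The Ighv12-3 share of the heavy sum was 0.47% ± 0.10 in WT vehicle and 0.38% ± 0.12 in WT PCB-153. A pattern common to B-1 cell segments was not tested.

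The breadth of V segment use was described by the effective number of segments, the number of equally used segments that would give the same Shannon entropy. For heavy segments it was 64.3 ± 2.3, 64.8 ± 2.4, 64.7 ± 2.4 and 64.0 ± 1.2 in WT vehicle, WT PCB-153, KO vehicle and KO PCB-153. For kappa segments it was 51.2 ± 2.0, 52.2 ± 1.8, 52.6 ± 2.1 and 47.1 ± 2.3. The 3 lowest kappa values of the 19 were KO PCB-153 4 (44.5), 2 (45.4) and 1 (46.7), and KO PCB-153 3 and 5, at 49.2 and 49.7, lay within the range of the other groups.

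Other genes of B cells and antibody production moved in part with and in part apart from the V segments. In KO PCB-153 against KO vehicle, 14 of 17 measured B cell genes fell (median -0.57) and 0 rose. Examples are H2-Ob, a regulator of antigen presentation, which fell by 0.57 ± 0.11 (limma, adjusted p = 0.0203), and the Fc receptor-like Fcrla, which fell by 0.62 ± 0.12 (adjusted p = 0.0205). Of 14 plasma cell genes 1 fell (Pou2af1, a B cell coactivator), of 11 constant region genes 0 passed, and of 15 genes of B cell receptor signalling 3 fell (Fcgr2b, Btk and Syk). Of 14 genes of the germinal centre, where B cells diversify and are selected, 1 fell (Bcl6), and of 9 genes of recombination 1 fell, the recombinase gene Rag1, by 1.16 ± 0.27 (adjusted p = 0.0263). In the same comparison 4 of 11 erythroid and 7 of 12 neutrophil genes rose, and 0 of 12 T cell and 0 of 11 macrophage genes passed. The summed B cell list ran from 60815 to 79079 in KO vehicle and from 35600 to 60418 in KO PCB-153, lowest in KO PCB-153 1. Within KO PCB-153, Cd79a was at 3151 and 3167 in replicates 1 and 4, the libraries with the most Cpa1. It was at 5432, 4249 and 5374 in replicates 2, 3 and 5. The gene lists were not refitted without the libraries with pancreatic RNA. The part of these markers in the V segment differences was not tested. In KO PCB-153 against WT PCB-153, 1 of 11 constant region genes passed. This was Igha, the constant gene of IgA, at 472 ± 125 in WT PCB-153 and 2518 ± 1608 in KO PCB-153, a log2 difference of 2.18 ± 0.42 (adjusted p = 0.0373), and it was at 796 ± 268 in WT vehicle and 2568 ± 1186 in KO vehicle. There 1 of 11 macrophage genes rose, Cd5l, and 0 genes of the other 8 lists passed. In the other comparisons 0 genes of any of the 10 lists passed.

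Liver, whose table was normalised separately, served as a tissue with few B cells. Here 0 of the 188 members had a mean of 10 or more and 44 were at 0 in every one of 20 livers. The members summed to 23.5 to 71.0 normalised reads per liver, which rests on 22 to 75 reads. By group the sums were 32.5 ± 3.7 in WT vehicle, 29.5 ± 6.6 in WT PCB-153, 45.8 ± 17.5 in KO vehicle and 40.1 ± 13.7 in KO PCB-153 (n = 5 each), with overlapping ranges. The highest liver means were those of Iglv1 (2.18), Igkv1-110 (1.98) and Igkv1-117 (1.84), which are also the 3 highest in spleen. Cd79a lay from 5.35 to 28.9 in liver.

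The authors' deposited tables of their own comparisons list 11 of the members at an adjusted p under 0.05 for exposure in the group labelled knockout, 1 higher and 10 lower. They list 6 for labelled knockout against labelled wild type under PCB-153, 4 higher and 2 lower, and 0 for each of the other 2 comparisons. In the authors' deposited table for exposure in the group labelled knockout, Igkv1-110 has a log2 fold change of 0.40 (adjusted p = 0.0276) and Iglv3 one of -0.44 (adjusted p = 0.0289), both of which missed the threshold in the limma fit.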

How the data were processed

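RNA was sequenced from 19 spleens and 20 livers. The labels name an Illumina TruSeq kit, called stranded in the design text but not in the extraction protocol. Per the submitters' processing notes the tools were STAR 2.6.0, FastQC, DESeq2 ("3.8") and featureCounts, with build mm10; settings and annotation are not stated there. Liver and spleen libraries were made separately, per the labels. The authors deposited a signal table per tissue, normalised read counts in which every gene of a library was divided by the same size factor. Division by each library's step recovered whole reads for 100% of the spleen values above 0, within 0.05 reads. Spleen libraries held 16.1 to 29.5 M reads (median 19.6 M), and replicates differed beyond counting error (lowest chi-square / df of 4.67). The authors also deposited tables of log2 fold changes with their standard errors, a Wald score, and p-values.

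Genes with a mean of at least 10 over the spleens were tested on log2(value + 1), a scale that understates changes of low genes, with limma 3.58.1 in R 4.3.3 (eBayes with trend), in 1 fit over 4 groups. P-values are two-sided and adjusted by the Benjamini-Hochberg method over 19058 genes, and a gene is called where the adjusted p is under 0.05. In reads simulated for KO PCB-153 against KO vehicle over 19058 genes, a true log2 change of 0.5 was found by limma for 18 of 50 genes, of 1 for 44 of 50 and of 2 for 49 of 50, with calls for 9 of 18858 unchanged genes. The changed genes were drawn from all genes tested, and RNA of other organs was not simulated. In this comparison the median standard error was 0.25 for V segments and 0.12 for all genes, so these rates are not those of V segments. The members, the gene lists and the tests were chosen with earlier results of these data known. Named are the 6 highest heavy and kappa segments, all lambda segments, up to 8 called members per comparison or the 2 with the smallest p, the single-library expansions, the segments nearest the minimum, up to 3 called genes per list and comparison, and 5 B cell and antibody genes. Igha levels in the vehicle groups, and the members called only on locus shares or with high values in 1 or 2 libraries outside the expansion rule, were chosen after their values were seen. Sequences and positions are from GENCODE M21. Alternatives were pseudocounts, filters, quantile and locus-sum scaling, a fit of the 2 compared groups, the replicate number as a block, edgeR 4.0.16, DESeq2 1.42.0 and each library left out, and, chosen after seeing the data, leaving out libraries with Cpa1 above 10 or Alb above 1000. The locus sums, ratios, percentages and expansions carry no test. Shares of the locus sum were tested in the same limma fit.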

Additional observations from a re-analysis of the deposited data

Results flagged for a closer look

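In 140 groups of 4 or 5 libraries, for the 32 named V segments and the 3 locus sums on the log2 scale, 17 had a highest or lowest library that stood apart from the rest of its group by Dixon's criterion at the 95% level. Chance alone flags about 1 in 20 groups that are independent and chosen without regard to their values. Some of these segments were named for their values, and the groups share libraries, so the 17 cannot be set against that rate.

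KO PCB-153 2 was the high library for Igkv1-117 (1928), Igkv1-110 (2224), Ighv7-3 (568.4) and Igkv4-63 (54.8). It also had the highest sums of all 3 loci. KO vehicle 2 was high for Igkv4-70 (683.7) and Ighv1-50 (462.5). KO vehicle 4, the library with the most Alb, was high for Ighv1-53 (431.9), Igkv10-96 (806.5) and Igkv15-103 (531.5), and KO vehicle 3 for Igkv13-85 (132.5).

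In the WT PCB-153 group the high libraries were replicate 1 for Ighv1-26 (618.2) and Ighv1-20 (27.9), replicate 5 for Ighv7-3 (410.9) and Ighv1-53 (239.0), replicate 3 for Igkv3-7 (91.6) and replicate 4 for Igkv1-99 (49.3). Ighv3-4 was low in WT PCB-153 2 (2.80). No WT vehicle library stood apart for a named segment or a sum, although Ighv1-20 in WT vehicle 4 was expanded by the ratio rule.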

How the results depend on the processing

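The count of V segments called stayed at 0 under every alternative for KO vehicle against WT vehicle, for WT PCB-153 against WT vehicle and for the interaction. For KO PCB-153 against WT PCB-153 it was 2, and became 1 with no filter, 1 with a minimum mean of 50 (118 members tested), 4 on shares of the locus sum, 1 in a fit of the 2 compared groups, 6 with DESeq2, and 0 without the libraries with Cpa1 above 10 or those with Alb above 1000. With the replicate number as a block it was 1. For KO PCB-153 against KO vehicle it was 7, and became 3 with no filter, 1 in a fit of the 2 compared groups, 11 with DESeq2, and 0 in both fits without the pancreatic or hepatocyte libraries, with 8 under the replicate block. Deviations of same-numbered libraries correlated at -0.23 to 0.27 over 27 pairs, and 5 of 19 libraries correlated best with their own number. This shows no clear pairing by replicate number, but weak correlations cannot exclude one. Leaving out 1 library gave 0 to 4 and 0 to 26 calls, respectively. Expansions numbered 4, with 3 to 5 when a library was left out, 0 at thresholds of 3 and 10 times, and 19 at 1.5 and 3 times. Of 330 refits of single members, 0 changed sign, 244 stayed on their side of the threshold and 86 lost it. The 244 include refits of members not called in the main fit, which had no call to lose. With 1 library of the compared groups left out, called members passed in 3 to 8 of 10 fits. DESeq2 gave no adjusted p for Ighv1-11 in KO PCB-153 against KO vehicle, and that refit is not among the 330. For the locus sums, the log2 ratio of group means moved by less than 1 pooled SD between libraries in all 138 refits, a wide margin. Some ratios changed sign as a library was left out. In WT PCB-153 against WT vehicle they ran from -0.13 to 0.12 for heavy and from -0.15 to 0.04 for lambda sums. The cause was not tested. Depth limits low members: Ighv15-2, with a mean of 10.01, rests on about as many reads per library.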
